A study of Mus musculus with 8 samples.

Results

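The pancreatic digestive enzyme genes described here are Sycn, Ctrb1, Prss2, Cela1, Cpa1, Cpb1, Pnlip, Pnliprp1, Cel and Clps, 10 of the 34964 gene names on the array, and were found by the gene name that the scanner files give each probe. Their transcripts were read by 11 probes, 2 of them for Clps. They were followed in medullary thymic epithelial cells (mTEC), which present peptides of organ-restricted proteins to T cells that mature in the thymus, and in small intestine epithelial cells (SIEC). There were 3 arrays of Cdx1+/+ mTEC, 3 of Cdx1-/- mTEC, 1 of SIEC labelled Cdx1+/+ and 1 of SIEC labelled Cdx1-/-, all from mice of mixed C57BL/6 and 129 background. Cdx1, a caudal-type homeobox factor, regulates genes of intestinal epithelium, and by its title the series asks how its loss bears on ectopic expression in mTEC. The mTEC were sorted live as Epcam+ UEA1+ CD45- CD80hi MHCIIhi, and each sample pooled 4 to 6 thymi. The SIEC were live Epcam+ CD45- cells, and each sample pooled 3 mice. The labels give no age or sex and do not say whether the deletion is carried in every cell.

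Acinar cells of the exocrine pancreas make digestive enzymes, most of them as inactive zymogens, pack them in granules and release them into the small intestine. There enteropeptidase activates trypsinogen, trypsin activates the other zymogens, and lipases act together with bile salts and colipase. In mTEC, transcripts of such organ-restricted genes are made ectopically, each in a small share of the cells, in part under control of the autoimmune regulator Aire, and this display is known for removing self-reactive T cells. In these pooled samples, fewer cells that hold a transcript and less of it per cell cannot be told apart.

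A level is the log2 signal less the array's 75th percentile, so that a difference of 1 is 2-fold, and levels of different genes are not set against each other because probes differ in how well they bind. Of the 59305 non-control spots, 58.6% to 63.5% were well above background on the mTEC arrays and 46.3% and 44.6% on the SIEC arrays labelled Cdx1+/+ and Cdx1-/-, and none was saturated. Cdx1 itself stood at 5.88, 5.91 and 5.97 in Cdx1+/+ mTEC and at 4.80, 4.99 and 5.00 in Cdx1-/- mTEC. The SIEC arrays gave 4.87 for the one labelled Cdx1+/+ and 6.48 for the one labelled Cdx1-/-, which goes against those labels, so the SIEC arrays are named by their labels throughout. No source used here says whether the Cdx1 probe lies in the deleted part of the gene. Aire (−0.03, limma adjusted p = 0.844) and Fezf2 (−0.01, limma adjusted p = 0.984), regulators of ectopic expression in mTEC, did not pass the test between mTEC genotypes and were well above background on no SIEC array. All 13 intestinal epithelium markers were well above background on both SIEC arrays.

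All 10 enzyme genes were well above background on all 6 mTEC arrays. In Cdx1-/- mTEC, 3 of them fell, Sycn by 1.52-fold, Ctrb1 by 1.85-fold and Cpb1 by 1.56-fold, and none rose. The other 7, which include a trypsinogen gene and all 3 lipase genes, did not pass the test. Of all 24339 genes tested, 6.61% passed as lower and 6.2% as higher. The call of Cpb1 held in 1 of the 6 fits that left out 1 array. Between tissues the set parted. Ctrb1 and Cel were 64.4-fold and 18.0-fold higher in mTEC, Prss2, Pnlip, Cpb1 and Cpa1 were well above background in mTEC and on no SIEC array, and the colipase gene Clps was 14.7-fold lower in mTEC than in SIEC.

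Promoter sequences of the genes were taken from RefSeq (build GRCm38.p6), which held 9 of the 10, all but Clps. The 250 bases before the transcription start are shown for Sycn and Ctrb1, which fell in Cdx1-/- mTEC, and for Prss2 and Pnlip, which did not pass the test. Capitals mark matches to TTCCCA (both strands), letters bound by the Rbpj family that serves acinar genes together with Ptf1a, to TTTATNG (both strands), letters bound by caudal-type homeobox factors, and to TATAAA (gene strand).
Sycn, chr7:28540635-28540884, plus strand: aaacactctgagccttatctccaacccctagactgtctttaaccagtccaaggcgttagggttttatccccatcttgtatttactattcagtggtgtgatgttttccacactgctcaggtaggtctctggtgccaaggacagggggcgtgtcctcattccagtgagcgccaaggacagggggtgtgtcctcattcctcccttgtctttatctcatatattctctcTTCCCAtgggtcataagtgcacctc
Ctrb1, chr8:111691011-111691260, minus strand: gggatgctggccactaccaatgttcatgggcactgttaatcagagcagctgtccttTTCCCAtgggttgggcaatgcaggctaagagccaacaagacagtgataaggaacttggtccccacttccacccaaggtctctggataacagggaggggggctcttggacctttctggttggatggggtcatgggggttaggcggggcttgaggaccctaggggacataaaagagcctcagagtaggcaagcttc
Prss2, chr6:41521526-41521775, plus strand: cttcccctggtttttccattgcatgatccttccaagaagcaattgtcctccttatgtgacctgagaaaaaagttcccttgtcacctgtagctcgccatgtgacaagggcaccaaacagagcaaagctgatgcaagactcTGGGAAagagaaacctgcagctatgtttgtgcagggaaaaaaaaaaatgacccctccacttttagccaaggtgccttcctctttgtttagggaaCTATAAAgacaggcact
Pnlip, chr19:58670115-58670364, plus strand: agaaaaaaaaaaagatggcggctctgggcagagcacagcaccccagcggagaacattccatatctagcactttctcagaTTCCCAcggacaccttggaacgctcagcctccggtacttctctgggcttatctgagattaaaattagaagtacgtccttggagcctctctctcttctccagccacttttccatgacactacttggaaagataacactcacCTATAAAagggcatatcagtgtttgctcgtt
Of the 9 promoters, 7 held TTCCCA, against 21.6% of 32851 mouse promoters of the same length. Among the 3 genes that fell it was in Sycn and Ctrb1, and it was also in Prss2, Cpa1, Pnlip, Pnliprp1 and Cel, which did not pass. TTTATNG was found in 4 of the 9 (Prss2, Cpa1, Pnlip and Cel), against 9.81% of all promoters. None of these 4 genes fell in Cdx1-/- mTEC, where 6.61% of all genes tested fell, so 4 genes are too few to show a link with the motif. In Prss2 and Pnlip the TTTATNG match lies on the strand opposite the gene and overlaps the TATAAA match. TATAAA itself was found in 3 of the 9 (Prss2, Cela1 and Pnlip), against 7.59% of all promoters. The E-box CANNTG (both strands, not marked) was found in 7 of the 9, against 66.2% of all promoters. A match describes these letters in this window and not a bound site.

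Sycn encodes syncollin, a protein of the zymogen granule membrane. Its probe lies on the plus strand of chr7:29327165-29327224 (mm9, the build of all probe positions given here). The level was 2.38, 2.40 and 2.42 in Cdx1+/+ mTEC and 1.79, 1.89 and 1.70 in Cdx1-/- mTEC. All 3 Cdx1-/- arrays were below all 3 Cdx1+/+ arrays, which lay close together (mean 2.40 ± 0.020 against 1.79 ± 0.095, SD, n = 3 each). The difference was −0.60 (SE 0.085, 95% interval −0.81 to −0.40), with a limma adjusted p of 0.0103 over 24339 genes. In limma it passed the threshold of 0.05 under each of 16 alternative settings, with adjusted p-values from 0.0075 to 0.0414.

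Among the endopeptidases, Ctrb1 encodes chymotrypsinogen B, which trypsin activates, and its probe lies on the minus strand of chr8:114210454-114210513. The level was 4.12, 4.47 and 4.22 in Cdx1+/+ mTEC and 3.11, 3.60 and 3.43 in Cdx1-/- mTEC. The groups did not overlap, and Cdx1-/- replicate 1 was the lowest (mean 4.27 ± 0.177 against 3.38 ± 0.25, SD, n = 3 each). The difference was −0.89 (SE 0.155, 95% interval −1.26 to −0.52), with a limma adjusted p of 0.0173. It passed under 14 of 16 alternatives (limma adjusted p from 0.0064 to 0.0517), and missed the threshold without Cdx1+/+ replicate 2 or without Cdx1+/+ replicate 3 (0.052 each).

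Prss2 encodes anionic trypsinogen, the zymogen of a trypsin. The level was 0.37, 1.07 and 0.63 in Cdx1+/+ mTEC and 0.96, 1.10 and 0.84 in Cdx1-/- mTEC. The groups overlapped, with Cdx1+/+ replicate 1 the lowest, and the difference of 0.28 did not pass (95% interval −0.16 to 0.71, limma adjusted p = 0.349). Trypsinogen genes are a family of related copies. The probe of Prss2 is shown with that of its neighbour Prss1 (mm9), with capitals at the bases that differ within the stretch where the probes align.
Prss2 probe, chr6:41473937-41473996: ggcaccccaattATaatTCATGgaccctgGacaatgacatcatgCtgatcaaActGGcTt
Prss1 probe, chr6:41412628-41412687: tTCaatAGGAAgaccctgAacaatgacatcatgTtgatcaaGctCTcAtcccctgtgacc
Over the 49 bases that both probes share in alignment, 36 were the same and 13 differed, and whether one probe holds signal of the other gene was not tested. Prss1 differed between mTEC genotypes by 0.35 (limma adjusted p = 0.112), and Try4 and Try5 by −0.02 and 0.0025, so no measured trypsinogen gene passed the test.

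Cela1 encodes a pancreatic elastase. The level was −2.21, −1.56 and −1.86 in Cdx1+/+ mTEC and −1.64, −1.81 and −1.79 in Cdx1-/- mTEC. The Cdx1-/- arrays lay within the range of the Cdx1+/+ arrays, and the difference was 0.13 (95% interval −0.28 to 0.53, limma adjusted p = 0.649). Without Cdx1+/+ replicate 1 it was −0.041.

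The carboxypeptidases take single amino acids from the carboxyl end of peptides, Cpa1 aromatic and aliphatic residues and Cpb1 basic ones. The probe of Cpb1 lies on the minus strand of chr3:20149467-20149526. Its level was −1.80, −2.06 and −1.60 in Cdx1+/+ mTEC and −2.55, −2.49 and −2.35 in Cdx1-/- mTEC. The groups did not overlap (mean −1.82 ± 0.234 against −2.46 ± 0.102, SD, n = 3 each). The difference was −0.64 (SE 0.136, 95% interval −0.97 to −0.32), with a limma adjusted p of 0.0296. This call passed under 9 of 16 alternatives (limma adjusted p from 0.0231 to 0.0759). It ended without the filter on dim probes, within slide 1 and in 5 of the 6 fits that left out 1 array (all but that without Cdx1+/+ replicate 2), and over those 6 fits the difference lay between −0.53 and −0.77.

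Cpa1 stood at −2.06, −2.20 and −1.83 in Cdx1+/+ mTEC and at −2.65, −2.16 and −2.42 in Cdx1-/- mTEC. Cdx1-/- replicate 2 fell among the Cdx1+/+ arrays. The difference of −0.38 did not pass (95% interval −0.75 to −0.0020, limma adjusted p = 0.159), and before adjustment its limma p was 0.0491.

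The 3 lipase genes did not pass the test. Pnlip, the pancreatic triglyceride lipase, stood at −1.19, −1.07 and −1.11 in Cdx1+/+ mTEC and at −1.14, −1.34 and −1.35 in Cdx1-/- mTEC. Cdx1-/- replicate 1 lay among the Cdx1+/+ arrays, and the difference was −0.16 (95% interval −0.38 to 0.070, limma adjusted p = 0.311). Pnliprp1, a lipase-related protein with little known lipase activity, stood at −0.20, 0.084 and −0.045 in Cdx1+/+ mTEC and at 0.16, −0.13 and 0.014 in Cdx1-/- mTEC. The groups lay over each other, with a difference of 0.069 (95% interval −0.21 to 0.35, limma adjusted p = 0.728) that was just below 0 without Cdx1+/+ replicate 1 or Cdx1-/- replicate 1.

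Cel, the bile salt-activated lipase that also splits cholesterol esters, stood at 1.31, 1.97 and 1.51 in Cdx1+/+ mTEC and at 1.38, 1.49 and 1.25 in Cdx1-/- mTEC. Cdx1+/+ replicate 2 stood above the other 5 arrays, and the difference was −0.23 (95% interval −0.65 to 0.20, limma adjusted p = 0.428). Clps encodes colipase, the cofactor that anchors pancreatic lipase to fat droplets. It stood at 2.80, 2.88 and 2.96 in Cdx1+/+ mTEC and at 2.91, 3.13 and 3.27 in Cdx1-/- mTEC, with a difference of 0.22 (95% interval −0.053 to 0.50, limma adjusted p = 0.241). Cdx1-/- replicate 1 lay among the Cdx1+/+ arrays. Its other probe gave 0.34, in the same direction, with overlapping groups. The 7 intervals that include 0 or nearly reach it do not show that these genes are alike in both genotypes.

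**Figure D1:**
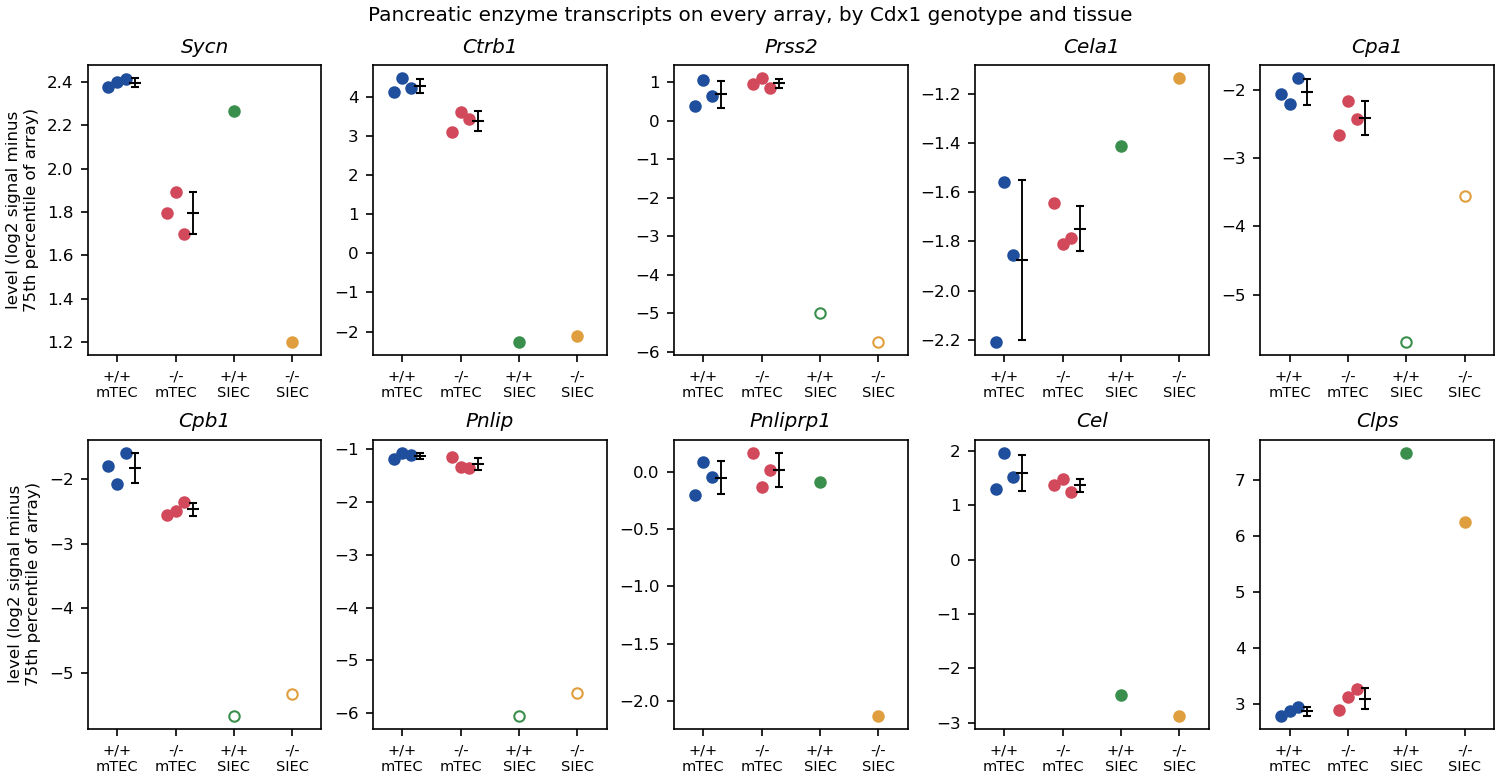
Level of each of the 10 genes on every array (log2 signal minus the 75th percentile of the array, own vertical axis per gene), by genotype and tissue. Filled points are well above background and open points are not, and the bars beside the mTEC points are the mean and SD of 3 arrays. The Cdx1-/- mTEC points of Sycn, Ctrb1 and Cpb1 lie below every Cdx1+/+ mTEC point, and Prss2, Cpa1, Cpb1 and Pnlip have open points in SIEC.

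Taken as a set in mTEC, 3 of 10 genes were lower and none higher, with a median difference of −0.19, 6 differences below 0 and 4 above. Of all 24339 genes tested, 12.8% passed the test in either direction, 6.61% as lower and 6.2% as higher, with a median of 0.00036. Arrays of the 2 genotypes did not overlap for 3 of the 10 genes, all lower, against 38.0% of all genes in either direction, 18.1% as lower and 19.9% as higher. At an unadjusted limma p under 0.05 there were 4 of the 10, the 3 that fell and Cpa1, against 31.1% of all genes, a share near theirs. When each array was left out in turn, 1 or 2 of the 3 calls passed, and the lowest number, Sycn alone, came without Cdx1+/+ replicate 3.

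Other cell types were read beside this set by the log2 of the summed signal of their markers. Of all genes tested, 6.61% fell and 6.2% rose in Cdx1-/- mTEC. Pancreatic islet markers summed to 5.62 to 5.69 in Cdx1+/+ mTEC and 5.15 to 5.23 in Cdx1-/- mTEC, and 4 of their 10 genes fell, among them Ins1 by 1.30 and Ins2 by 1.26 on the log2 scale. Of the intestinal epithelium markers, 7 of 13 fell, and their sum was 6.23 to 6.34 against 6.03 to 6.17. Thymocyte markers (3.72 to 4.29 against 3.68 to 4.04) and dendritic cell and macrophage markers (6.53 to 6.78 against 6.12 to 6.65) overlapped between genotypes in their sums. Siglech alone (5.92 to 6.15 against 5.32 to 6.05) made up most of the dendritic cell and macrophage sum. B cell markers were at 3.21 to 3.38 against 3.62 to 3.80, without overlap, and Cd79b (0.56, limma adjusted p = 0.016) and Blk (0.65, limma adjusted p = 0.0079) rose. Of the thymocyte markers 9 of 11 were well above background on all 6 mTEC arrays, and 1 of the 10 tested fell (Ptcra). Of the dendritic cell and macrophage markers 9 of 10 were, and Lyz2 rose by 0.93 (limma adjusted p = 0.0041) while Mrc1 fell by 1.43 (limma adjusted p = 0.0021). Rag2 of the first list and Xcr1 of the other were well above background on no mTEC array. The part of other cells in the enzyme differences was not tested.

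The wider acinar programme was read from a list of other secretory enzymes. Of 20 listed genes 17 were on the array and 16 were tested, and 2 fell and none rose in Cdx1-/- mTEC (median 0.018). Both that fell are elastase genes. Cela3b stood at 1.57, 1.23 and 1.70 in Cdx1+/+ mTEC and at 0.85, 0.66 and 0.83 in Cdx1-/- mTEC, without overlap (difference −0.72, limma adjusted p = 0.0225). Cela3a fell by 0.74 on the log2 scale (limma adjusted p = 0.0279), and since the 2 genes are close paralogs, whether their probes share signal is uncertain. Cela2a had a difference of the same size, −0.74, that did not pass (limma adjusted p = 0.111), with Cdx1-/- arrays at −2.87, −2.98 and −2.07 and Cdx1+/+ arrays between −2.18 and −1.70. The amylase gene Amy2a5 had the largest difference upward in the list, 0.67, which did not pass either (limma adjusted p = 0.0581). The share that passed, 2 of 16, was near that of all genes.

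**Figure D2:**
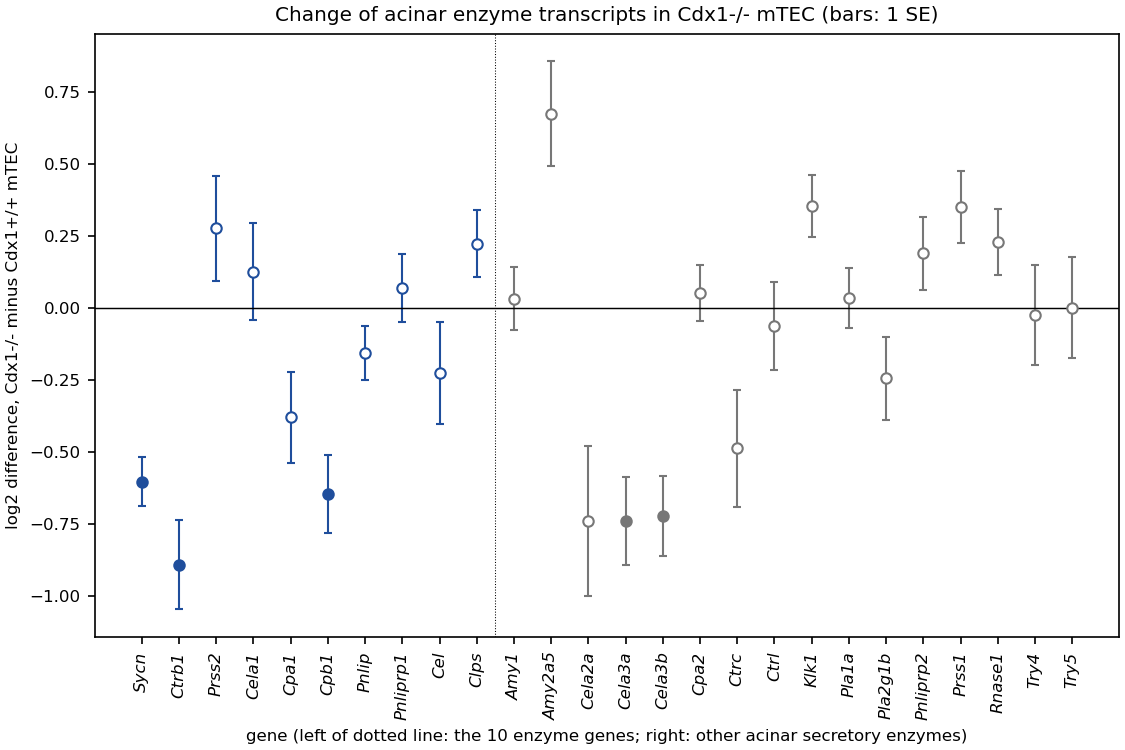
Difference between Cdx1-/- and Cdx1+/+ mTEC (log2, with 1 SE from limma, 3 arrays each) for the 10 enzyme genes at the left and 16 other acinar secretory enzymes at the right. Filled points passed the adjusted threshold of 0.05 and all lie below 0, at −0.60, −0.89 and −0.64 at the left and −0.74 and −0.72 at the right.

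Of 13 tested genes of acinar granule, inhibitor and stress proteins, 1 rose and 2 fell, against 6.2% and 6.61% of all genes tested. Rab3d, a small GTPase of secretory granules, rose by 0.59 (limma adjusted p = 0.011), the scavenger receptor gene Dmbt1 fell by 1.06 (limma adjusted p = 0.0049) and the acinar water channel gene Aqp12 fell by 0.51 (limma adjusted p = 0.0198). Gp2, the main glycoprotein of the granule membrane, and Spink1, a trypsin inhibitor, differed by 0.10 and −0.19 and did not pass. Of 14 tested acinar transcription factors, 2 rose and 3 fell, against the same shares of all genes. Ptf1a, the factor that drives acinar enzyme genes, rose from −1.31, −1.48 and −1.23 to −0.92, −0.71 and −0.73 (difference 0.56, limma adjusted p = 0.0224), and Foxa2 rose by 0.62. Nr5a2, a nuclear receptor that works with Ptf1a, fell by 0.81 on the log2 scale (limma adjusted p = 0.024) and Gata4 by 1.20 (limma adjusted p = 0.0055). Pdx1 passed as lower too (limma adjusted p = 0.0334), but it was well above background on all 3 Cdx1+/+ and on no Cdx1-/- mTEC array. It thus entered the test only through the Cdx1+/+ arrays. There its level (−4.48, −4.06 and −4.19) was close to the lowest called well above background (−5.35, −4.69 and −5.04). The size of its fall is therefore not measured. Ptf1a thus rose while Sycn, Ctrb1 and Cpb1 fell, but these enzyme genes were picked because they fell. A link between them and Ptf1a was not tested. The Ptf1a partner Rbpjl differed by −0.07 and did not pass. Between tissues, Dmbt1, Nr5a2 and Gata4 were lower in mTEC than in SIEC (−7.1, −4.7 and −3.1, log2), and Aqp12 was higher (3.4).

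Where 6.61% of all genes tested fell, 4 of 12 genes of enzyme activation and hormonal control fell and none rose. They were Sct, the hormone secretin that calls forth pancreatic bicarbonate (by 1.00, limma adjusted p = 0.0032), Cck, the hormone cholecystokinin that calls forth enzyme release (by 0.61, limma adjusted p = 0.0182), the bicarbonate transporter gene Slc4a4 (by 1.00, limma adjusted p = 0.0056) and the chloride channel gene Cftr (by 0.80, limma adjusted p = 0.0225). The median of this list was −0.37. The 4 that fell were also lower in mTEC than in SIEC. Their differences, mTEC minus SIEC, were −0.89 (Sct), −0.86 (Cck), −4.28 (Slc4a4) and −2.77 (Cftr), and that of Sct turned its sign with quantile normalization. Of the 12 genes, 6 were lower and 5 higher in mTEC, against 48.3% and 35.3% of all genes tested. Whether the fall of these 4 is part of that of the intestinal epithelium markers was not tested. Tmprss15, enteropeptidase, differed by 0.11 and did not pass.

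The genes whose level followed the 3 that fell most closely over the 6 mTEC arrays were found among 16881 genes by Pearson correlation, as a description in which the genotype difference is shared. For Sycn these were 1810065E05Rik (r = 0.9994), the protein kinase gene Prkg2 (0.9991) and Il6 (0.9974). For Ctrb1 they were Pknox2 (0.9978), Stat3 (0.9958) and Serpina3b (0.9956), and for Cpb1 Cnn1 (0.9994), Itih1 (0.9976) and Col24a1 (0.9971). With 6 arrays such values were common: 571, 536 and 275 genes had an r above 0.95 to Sycn, Ctrb1 and Cpb1.

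Genes next to the enzyme genes on the chromosome were read as well, a rule chosen after values had been seen. Of 18 protein-coding neighbours 17 were tested, and 2 rose and 1 fell, against 6.2% and 6.61% of all genes tested. Both that rose flank Cpa1, the carboxypeptidase gene Cpa5 by 1.02 (limma adjusted p = 0.0040) and Cep41 by 0.56 (limma adjusted p = 0.0295), while Cpa1 itself had a difference of −0.38. The one that fell was Ccdc172, beside Pnlip, by 0.95 on the log2 scale (limma adjusted p = 0.0214). Neither neighbour of Sycn or of Ctrb1 passed the test, and Nccrp1 and Ifnl3 beside Sycn differed by 0.17 and −0.43. Pnliprp1 lies between Pnlip and Pnliprp2, and none of the 3 passed.

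Between tissues all 10 genes passed the test, 8 as higher and 2 as lower in mTEC, against 83.6% of 24681 genes in either direction, 35.3% as higher and 48.3% as lower. For 8 of them, 6 higher and 2 lower, no mTEC array overlapped a SIEC array, against 82.2% of all genes in either direction, 34.2% as higher and 48.0% as lower. With the 4 genes that no SIEC array measured set at their lower bounds, the median of the 10 differences was 1.61, and that of all genes was −0.37. With normexp background correction 30.3% of all calls were higher in mTEC and without the filter on dim probes 31.3%, against 42.2% in the main fit. The all-gene median moved with the scaling, to −0.08 with quantile normalization and −0.85 with the authors' table.

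Ctrb1 stood at 3.11 to 4.47 in mTEC and at −2.25 and −2.12 in SIEC, and Cel at 1.25 to 1.97 in mTEC and at −2.49 and −2.87 in SIEC. The mTEC arrays lay far above both SIEC arrays, by 6.01 for Ctrb1 (64.4-fold, limma adjusted p = 1.75e-07) and 4.17 for Cel (18.0-fold, limma adjusted p = 2.29e-07). With normexp background correction these differences were 5.15 and 2.97. For genes well above background on no SIEC array the fold is a lower bound, taken against the lowest signal called above background on those arrays or the own signal of the probe where that was higher. Prss2 was at least 24.5-fold higher in mTEC, Pnlip at least 6.0-fold, Cpb1 at least 3.13-fold and Cpa1 at least 2.96-fold. Their fitted differences passed in limma, with Cpa1 at an adjusted p of 0.00196, which became 0.303 with normexp background correction and 0.071 with slide as a block. Normexp correction gave fitted differences under those bounds for every one of these genes. Prss2 (3.05), Pnlip (1.497) and Cpb1 (0.71) were each still past the threshold, and Cpa1 (0.24) was not. The bounds thus hold for the main processing only.

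Sycn and Pnliprp1 were near each other in the 2 tissues. Sycn stood at 1.70 to 2.42 in mTEC and at 2.27 and 1.20 in SIEC, so that the SIEC array labelled Cdx1+/+ lay within the mTEC range. Its difference of 0.36 (limma adjusted p = 0.0308) passed under 10 of 17 alternatives. It was −0.12 with the authors' table (limma adjusted p = 0.512) and 0.13 without the SIEC array labelled Cdx1-/-. Without the genotype term, which takes the SIEC labels as given, its limma adjusted p was 0.302. Pnliprp1 stood at −0.20 to 0.16 in mTEC and at −0.093 and −2.13 in SIEC. Its difference of 1.09 (limma adjusted p = 0.0344) passed under 9 of 17 alternatives and rested on 1 array: it was 0.038 without the SIEC array labelled Cdx1-/- and 2.14 without the one labelled Cdx1+/+. With the replicate number as a block, the limma adjusted p was 0.055 for Sycn and 0.062 for Pnliprp1.

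Cela1 and Clps were lower in mTEC. Clps stood at 2.80 to 3.27 in mTEC and at 7.48 and 6.25 in SIEC, without overlap, and fell by 3.88 on the log2 scale from SIEC to mTEC (14.7-fold, limma adjusted p = 5.90e-06). The difference was −3.15 without the SIEC array labelled Cdx1+/+, −4.60 without the one labelled Cdx1-/- and −2.90 with quantile normalization. Its other probe gave −3.89. Cela1 stood at −2.21 to −1.56 in mTEC and at −1.41 and −1.14 in SIEC, a difference of −0.54 (1.45-fold, limma adjusted p = 0.0184), which is −0.17 relative to the shift of all genes. It missed the threshold with slide as a block (0.198) and without either SIEC array (0.0503 and 0.116).

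Both SIEC arrays were on slide 2, with Cdx1-/- mTEC replicate 1. Within that slide the differences were 5.30 for Ctrb1, 4.06 for Cel and −3.96 for Clps, and 0.059 for Sycn, and no spread can be had from its 3 arrays. With slide as a block, 5 genes were higher and 1 lower, and Sycn, Pnliprp1, Cpa1 and Cela1 did not pass. The other secretory enzymes parted in the same way. Of 16, 12 were higher and 3 lower in mTEC, against 35.3% and 48.3% of all genes tested. On no SIEC array were 9 of them well above background. Such were the phospholipase gene Pla1a (at least 254-fold higher in mTEC), Pla2g1b (at least 55.6-fold) and Prss1 (at least 31.2-fold). The 3 that were lower in mTEC were Pnliprp2, by 6.10 on the log2 scale (limma adjusted p = 2.79e-06), the kallikrein gene Klk1 and the chymotrypsin-like gene Ctrl, and none of these 16 turned its sign with quantile normalization, normexp background correction or the authors' table. Clps, Pnliprp1, Pnliprp2 and Cel were thus detected on both SIEC arrays, whereas Pnlip and Pla2g1b were on neither. Sycn, Ctrb1 and Cela1 were detected on both as well. Enteropeptidase, Tmprss15, was higher in mTEC than in these SIEC by 2.47 (limma adjusted p = 5.29e-07).

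**Figure D3:**
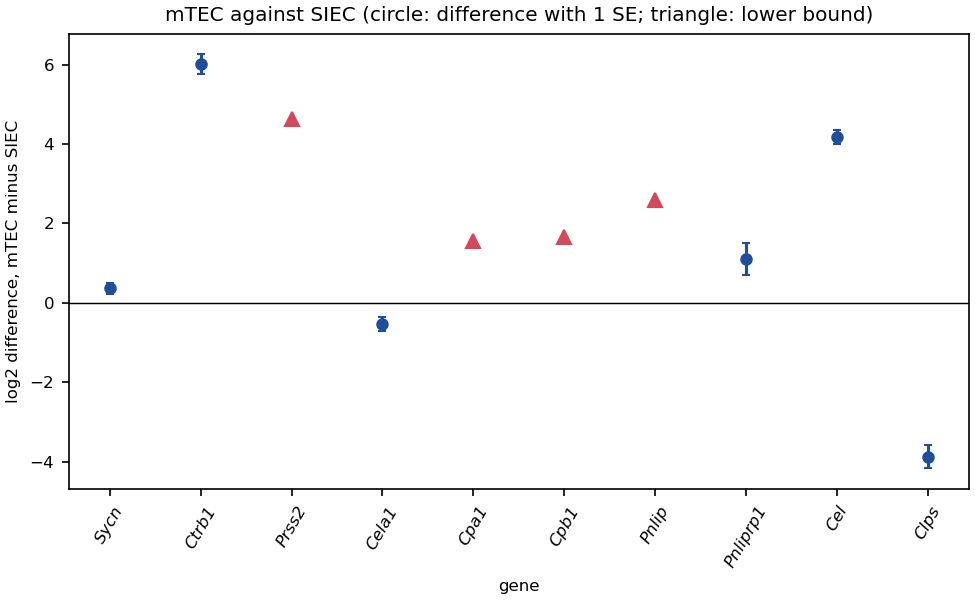
Difference between mTEC (6 arrays) and SIEC (2 arrays) on the log2 scale for each of the 10 genes. Circles with 1 SE are fitted differences of genes well above background on both SIEC arrays, and triangles are lower bounds for genes well above background on neither. Ctrb1 at 6.01 and Cel at 4.17 are the highest circles, and Clps at −3.88 is the lowest.

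With 1 SIEC array for each genotype, the differences between them have no replicate check and no test. Of the 10 genes 6 were well above background on both arrays. On the array labelled Cdx1-/-, 3 of these were at least 2-fold lower than on the array labelled Cdx1+/+ and none was at least 2-fold higher. Of 17064 genes measured on both arrays, 4.61% differed at least 2-fold, 1.15% as lower and 3.46% as higher, and the median difference was −0.032. If the 2 labels were exchanged, every sign in this pair would turn.

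Pnliprp1 went from −0.093 on the array labelled Cdx1+/+ to −2.13 on the array labelled Cdx1-/- (4.10-fold), which put it at the 0.135th percentile of all differences. With normexp background correction its difference was −1.17. Clps went from 7.48 to 6.25 (2.34-fold), and its other probe from 5.07 to 3.61. Sycn went from 2.27 to 1.20 (2.09-fold), which with quantile normalization was −0.83 and so under 2-fold. Cel (−0.38), Ctrb1 (0.14) and Cela1 (0.28) lay within 2-fold. In the acinar lists, Pnliprp2 went from 3.63 to 1.73 and Reg1, a secreted regenerating protein, from 7.01 to 5.43, the largest differences of their lists. In mTEC the same genes differed between genotypes by 0.069 (Pnliprp1), 0.22 (Clps), −0.60 (Sycn), 0.19 (Pnliprp2) and −0.01 (Reg1).

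Other cells differed between the SIEC arrays as well. The summed thymocyte markers went from 3.67 to 5.16 between the arrays labelled Cdx1+/+ and Cdx1-/-, and all 6 that were measured on both were at least 2-fold higher on the latter, while Rag1, Rag2, Ptcra and Themis were well above background on neither. Dendritic cell and macrophage markers went from 6.95 to 7.71, a sum made up mostly of Siglech (6.46 to 7.12) and Itgam (5.04 to 6.04). Of the 5 of these markers measured on both arrays, 1 was at least 2-fold higher and 0 at least 2-fold lower. Red blood cell markers went from 5.51 to 6.28. The intestinal epithelium markers were at 10.8 and 11.4. The part of these cells in the lower enzyme levels was not tested, and genotype, array and pool of mice cannot be told apart.

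**Figure D4:**
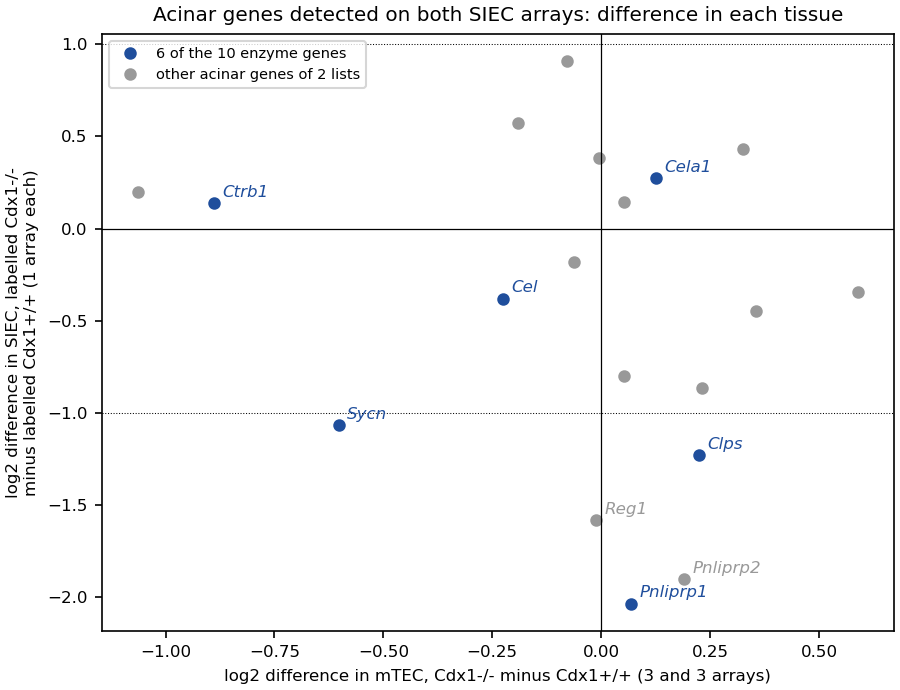
Difference between the SIEC arrays labelled Cdx1-/- and Cdx1+/+ (1 array each, vertical) against the difference between mTEC genotypes (3 and 3 arrays, horizontal), both log2, for acinar genes well above background on both SIEC arrays. Dotted lines mark 2-fold. Pnliprp1, Pnliprp2, Reg1, Clps and Sycn lie under the lower dotted line, and of these Sycn is the one that passed the test in mTEC.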

How the data were processed

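Total RNA of 8 pooled samples was hybridised to 1-colour (Cy3) arrays. The authors' deposited scanner files hold intensity values per spot from Agilent Feature Extraction 10.7.3.1 (named in the submitters' processing notes, version per the file headers), background-subtracted and detrended within the array. In the deposited normalized values, each array has the same intensity times 1 constant per array, with a median of 1, and these served as an alternative.

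Here the log2 processed intensity minus the 75th percentile of the array was used, over the 59305 non-control spots without outlier flags, with spots of a probe averaged (55681 probes). Genes were named by accession through RefSeq (GRCm38.p6) for 27509 probes and by the file's name otherwise. For each gene the probe of highest mean signal was kept, out of those that in 1 group were well above background on 2 or more arrays. Groups were compared with limma 3.58.1 in R 4.3.3 (lmFit and eBayes, 2-sided). P-values were adjusted by Benjamini-Hochberg across the genes of a fit, with a threshold of 0.05: genotypes on the 6 mTEC arrays, tissues on all 8 with genotype as an additive term. The script was tested on simulated data. Plots were drawn with matplotlib 3.10.9, and tables were handled with pandas 2.3.3 and, in R, data.table (1.17.8). The number of arrays limits the precision.

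The 10 genes and all gene lists were chosen with earlier results of these data known. All 10 genes are named. Of each list, at most 4 genes of smallest p that passed in a comparison are named, and the 2 of largest difference in the SIEC pair; other list genes were chosen after their values were seen. For each gene that passed in mTEC, the 3 genes of highest correlation are named. Promoters are from RefSeq (GRCm38.p6) and probe positions from the files (mm9).

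Slide 2 held both SIEC arrays with replicate 1 of Cdx1-/- mTEC, and slide 1 the other 5 arrays. Each sample is a pool, and p-values measure the spread between pools. Deviations from the group means correlated by 0.322, 0.147 and 0.148 between mTEC samples of the same replicate number. Between samples of different numbers they correlated by −0.22 to 0.055. The numbers come from the sample titles. The main fits held no replicate term, so their p-values do not use such a pairing, and the replicate number entered as a block among the alternatives. The alternatives were normexp background correction (offset 50), quantile normalization, the authors' table, other filters on dim probes, every probe on its own, 1 fit of all 8 arrays (equal by construction to the mTEC fit), no genotype term in the tissue fit, slide and replicate as blocks, and each array left out.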

Additional observations from a re-analysis of the deposited data

Results flagged for a closer look

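Ctrb1 differed by −0.89 between Cdx1-/- and Cdx1+/+ mTEC, with all 3 Cdx1-/- arrays below all 3 Cdx1+/+ arrays, and by 0.14 between the SIEC arrays labelled Cdx1-/- and Cdx1+/+. These values have opposite signs, which is why they are listed, but the SIEC value is small and shows no direction. It comes from 1 array each and lies at the 66.9th percentile of all genes, it was 0.034 with quantile normalization and −0.083 with the authors' table, and with the SIEC labels exchanged it would be −0.14. The difference between the tissues was not tested.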

How the results depend on the processing

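In mTEC, the 16 alternatives gave 147 values for the 10 genes with the same call as in the report, 9 that lost the threshold and 4 reversed. Reversed signs were Cela1 without Cdx1+/+ replicate 1 (−0.041, up to 0.28 with another array left out) and Pnliprp1 without Cdx1+/+ replicate 1 (−0.0047), without Cdx1-/- replicate 1 and within slide 1 (−0.0055, the same fit; up to 0.14 with another array left out). Leaving out 1 array gave 1 to 2 genes lower and 0 higher. The number of all genes called ran from 1232 without Cdx1+/+ replicate 3 to 3491 with a strict filter on dim probes, against 3119 in the main fit. It was 1933 under normexp background correction, 1310 without a filter, 1837 within slide 1 and 1837 as the highest with 1 array left out. With every probe on its own, 3514 of 33523 probes passed. The replicate block gave 3 lower genes and 0 higher and changed no other call than the tissue calls of Sycn and Pnliprp1 (adjusted p 0.055 and 0.062), with 3441 calls over all genes.

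Between tissues, Sycn reversed with the authors' table (−0.12). Slide as a block gave 5 genes higher and 1 lower, and leaving out 1 array gave 6 to 8 higher and 1 to 2 lower. In the SIEC pair Pnliprp1 was −1.17 with normexp background correction, −1.72 with quantile normalization and −2.26 with the authors' table, Sycn was −0.83 with quantile normalization, and Cel turned to 0.037 with normexp. The cause of these changes was not tested. Signal over background limits Prss2, Cpa1, Cpb1 and Pnlip in SIEC to bounds, and 1 SIEC array per genotype allows no spread.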
